A study of Mus musculus with 24 samples.

Results

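Antisense genes at 3 loci and the protein-coding genes on the opposite strand were followed through the gastrocnemius muscle transcriptome of ambulatory and movement-restricted mice. The pairs were A930016O22Rik with Ckm, Gm7854 with Cpeb2, and A630019I02Rik with Cmya5, which gives 6 genes of the 55416 in the count table, and all 6 were among the 16408 that passed the filter on low counts. The 3 antisense genes were chosen by their measured female values, since each passed a false discovery rate (FDR) of 0.05 and was higher with inactivity, so their female values are given as a description without a test. Their sense genes, and every comparison of the antisense genes in males, were not part of that choice. The fit behind the female values used all 24 libraries with a shared estimate of spread, so the male spread entered it indirectly. The 24 libraries came from mice of both sexes, with 6 sham and 6 small mouse cage (SMC) males and as many females of each kind, all of the C57BL/6J strain, which the labels spell C56BL6J. Small mouse cages restrict ambulatory movement, and SMC mice were kept in them for 8 weeks, whereas sham mice stayed freely moving. No transgene or drug is named in the labels, and the comparison asks how 8 weeks of SMC alter muscle gene expression in adults of each sex. Each library is taken as 1 mouse, since the labels give no other link between samples.

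An antisense gene is transcribed from the strand opposite to another gene and can share DNA, but not RNA sequence, with it. Such RNAs are usually noncoding and present at low levels, and for some loci they have been linked to control of the gene they overlap. Ckm encodes muscle creatine kinase, which regenerates ATP from phosphocreatine during contraction. Cpeb2 encodes a cytoplasmic polyadenylation element binding protein that controls translation of bound mRNAs, and Cmya5 encodes myospryn, a large protein of the costamere and Z-disc region that binds desmin and dysbindin. No function is stated here for A930016O22Rik, Gm7854 or A630019I02Rik.

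The pairs differed in how the antisense gene lay on its sense gene (GENCODE M21 annotation, mouse build GRCm38, whereas the reads were aligned to GRCm39). A930016O22Rik (ENSMUSG00000040705, chr7:19417466-19421417, minus strand) lay wholly within Ckm (ENSMUSG00000030399, chr7:19404776-19422841, plus strand). Its annotated start fell in the noncoding part of the last Ckm exon, and 451 of its 2560 exon bases (17.62%) lay over Ckm exons, 417 of them coding. Gm7854 (ENSMUSG00000085720, chr5:43151686-43235355, minus strand) ran away from Cpeb2 (ENSMUSG00000039782, chr5:43233170-43289724, plus strand), with the 2 starts 2185 bases apart. The spans of Gm7854 and Cpeb2 overlapped by 2186 bases, and 137 of 1433 Gm7854 exon bases (9.56%) lay over Cpeb2 coding sequence. A630019I02Rik (ENSMUSG00000114968, chr13:93094833-93098968, plus strand) lay wholly within Cmya5 (ENSMUSG00000047419, chr13:93040713-93144724, minus strand), and its start fell inside a Cmya5 coding exon. Most of A630019I02Rik was coding sequence of Cmya5 on the other strand, 2451 of 2990 exon bases (81.97%), which leaves 539 exon bases free of it.

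**Figure D1:**
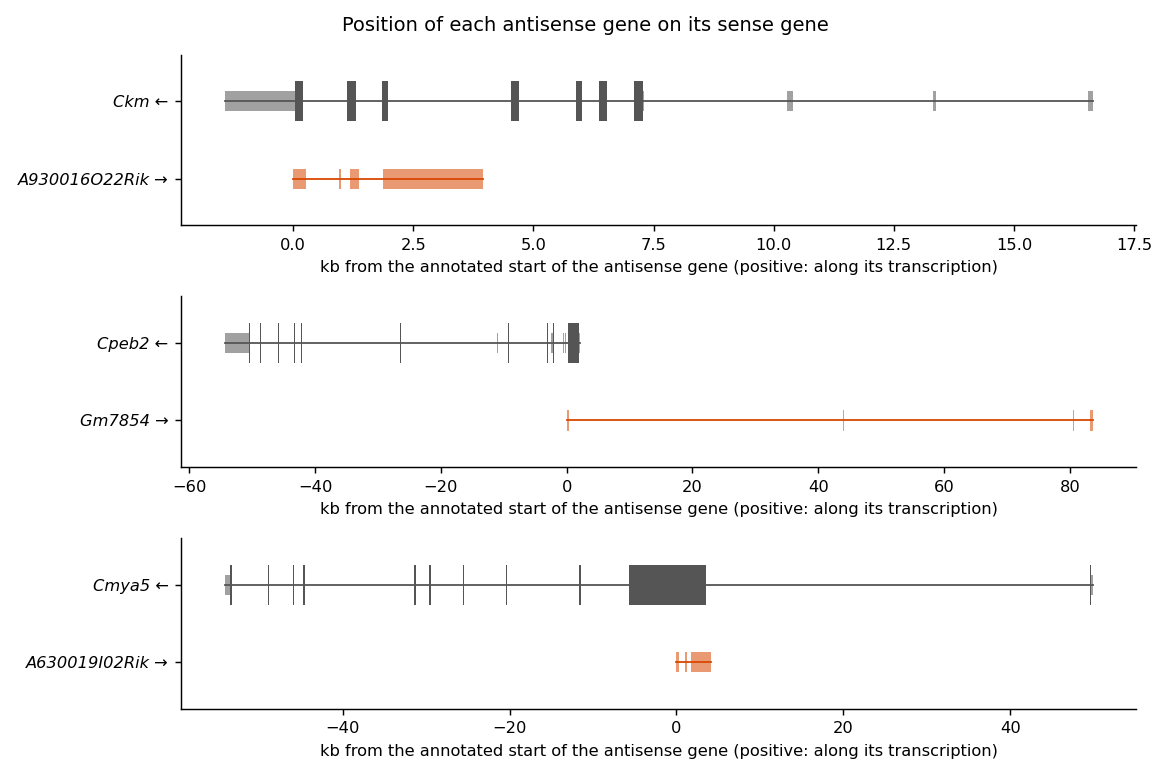
Exons of each antisense gene (orange) and its sense gene (grey) against the distance in kb from the annotated start of the antisense gene, with tall boxes for coding and low boxes for noncoding exon sequence and arrows for the direction of transcription. A930016O22Rik and A630019I02Rik sit inside their sense genes, whereas Gm7854 overlaps the first 2186 bases of the Cpeb2 span and extends away from it.

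A stretch of each antisense transcript that crosses the edge of a coding exon of its sense gene is shown, because reads from such shared bases can be assigned to a gene only by their strand. Sequences run 5′ to 3′ on the antisense strand, with bases over the sense coding exon in capitals and the remaining bases of the antisense exon in lower case. They were read from the GRCm38 genome at chr7:19420058-19420232 for A930016O22Rik, at chr5:43234952-43235168 for Gm7854 and at chr13:93098310-93098509 for A630019I02Rik.
A930016O22Rik over Ckm: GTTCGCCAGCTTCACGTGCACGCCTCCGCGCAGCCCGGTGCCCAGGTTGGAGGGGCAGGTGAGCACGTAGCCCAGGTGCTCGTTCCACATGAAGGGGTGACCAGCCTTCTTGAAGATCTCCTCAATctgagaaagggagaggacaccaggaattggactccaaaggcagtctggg
Gm7854 over Cpeb2: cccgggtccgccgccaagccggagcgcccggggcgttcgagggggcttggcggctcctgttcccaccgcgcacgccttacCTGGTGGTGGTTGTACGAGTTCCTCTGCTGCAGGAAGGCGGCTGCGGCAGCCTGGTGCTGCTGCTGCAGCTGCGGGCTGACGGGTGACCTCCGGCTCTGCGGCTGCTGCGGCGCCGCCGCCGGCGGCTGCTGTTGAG
A630019I02Rik over Cmya5: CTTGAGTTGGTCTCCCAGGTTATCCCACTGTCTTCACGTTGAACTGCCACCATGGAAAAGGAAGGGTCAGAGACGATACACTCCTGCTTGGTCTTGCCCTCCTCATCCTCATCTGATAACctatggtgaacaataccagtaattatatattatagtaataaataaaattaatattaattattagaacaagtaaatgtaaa
The stretches hold 126 capital bases of 175 for A930016O22Rik, 137 of 217 for Gm7854 and 120 of 200 for A630019I02Rik. The shared bases of Gm7854 were the richest in G and C (71.53%), compared with 62.7% for A930016O22Rik and 50.83% for A630019I02Rik.

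Total counts were 23026627 to 36880413 per library. Levels are given as read counts, as counts per 1000000 (CPM, scaled by trimmed-mean factors between 0.854 and 1.32) or per kilobase of exon (RPKM) where genes are compared. The muscle identity of the samples was clear from Ckm itself, at no less than 280681 reads in any library. A pair of sham libraries stood apart in fibre-type genes, since the mean log2 CPM of 10 slow-fibre genes was 1.96 in male sham replicate 4 and 1.67 in female sham replicate 7 and ranged from 5.42 to 8.08 in the other 22. In these bulk samples, a change in the share of a fibre or cell type and a change of RNA per cell cannot be told apart. Across all genes, 56 (0.341%) passed an FDR of 0.05 with SMC in females, 20 higher and 36 lower, and 0 of 16408 (0%) in males by the quasi-likelihood test of edgeR, although 1805 genes in males had an unadjusted p under 0.05 and DESeq2 called 128 and limma 93.

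A930016O22Rik, the transcript within Ckm, was the most abundant of the 3 antisense genes and was higher in SMC females than in sham females without overlap, as were 0.396% of all tested genes. Its counts in female sham mice ran from 202 through a median of 231.5 to 277, and in female SMC mice from 439 through 557.5 to 638. On the CPM scale this was 8.78 ± 1.68 against 20.4 ± 3.74 (SD, n = 6 each), a log2 fold change of 1.22 (SE 0.240). In males, counts ranged from 257 to 434 (median 317) in sham and from 196 to 670 (median 339) in SMC, so the SMC mice spread over and beyond the sham range at both ends. The 2 highest male SMC mice, replicates 17 and 18, reached 670 and 600 reads, or 24.7 and 25.1 CPM, inside the CPM range of female SMC mice (16.7 to 26.3), whereas the other 4 lay between 196 and 369. In males 0 of the 3 antisense genes had all 6 SMC mice above all 6 sham mice, as 0.591% of all tested genes had. The male log2 fold change of A930016O22Rik was 0.39 (SE 0.237, 95% CI -0.10 to 0.88, edgeR FDR 0.572), and it was 0.19 without male SMC replicate 18. The 2 sham groups were at 11.5 ± 2.62 CPM in males and 8.78 ± 1.68 CPM in females, with overlapping ranges.

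Gm7854, which starts within Cpeb2 and runs away from it, had the lowest mean CPM of the 3 antisense genes in each group. Per kilobase of exon it lay above A630019I02Rik in males. The female difference of Gm7854 rests on few reads. Female sham libraries held 3 to 9 reads (median 5.5) and female SMC libraries 12 to 38 (median 16.5). The groups did not overlap, and the means were 0.207 ± 0.0746 and 0.691 ± 0.221 CPM (SD, n = 6 each) with a log2 fold change of 1.73 (SE 0.387). Female sham mice had the lowest mean Gm7854 level of the 4 groups, as they also had for A930016O22Rik and A630019I02Rik. For Gm7854, male sham mice were at 0.558 ± 0.258 CPM (9 to 23 reads, median 15), close to the female SMC level. Male SMC mice held 11 to 52 reads (median 18.5) at 0.921 ± 0.529 CPM, with replicates 13 and 14 above all male sham mice. The male log2 fold change was 0.74 (SE 0.339, 95% CI 0.04 to 1.44). It had an unadjusted edgeR p of 0.0390 and an FDR of 0.415, and so did not pass over all genes. Without male SMC replicate 14 it was 0.43.

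A630019I02Rik, the transcript over the coding exon of Cmya5, followed the same order in females as A930016O22Rik. Its counts ran from 11 through 13.5 to 21 in female sham mice and from 24 through 51.5 to 75 in female SMC mice. The means of 0.550 ± 0.148 and 1.82 ± 0.680 CPM (SD, n = 6 each) gave a log2 fold change of 1.72 (SE 0.388) without overlap. In males the sham mice were narrow, 23 to 36 reads with a median of 25.5, whereas SMC mice ran from 8 through 21.5 to 59. Sham males averaged 0.955 ± 0.291 CPM, and 5 of 6 lay above all sham females. Replicates 17 and 18, the 2 male SMC mice that were high for A930016O22Rik, were again the highest with 40 and 59 reads, and replicate 14 was the lowest of all 24 libraries with 8 reads. The male log2 fold change was 0.13 (SE 0.379, 95% CI -0.65 to 0.91, edgeR FDR 0.943), and it was -0.33 without male SMC replicate 18 and -0.010 without replicate 17.

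**Figure D2:**
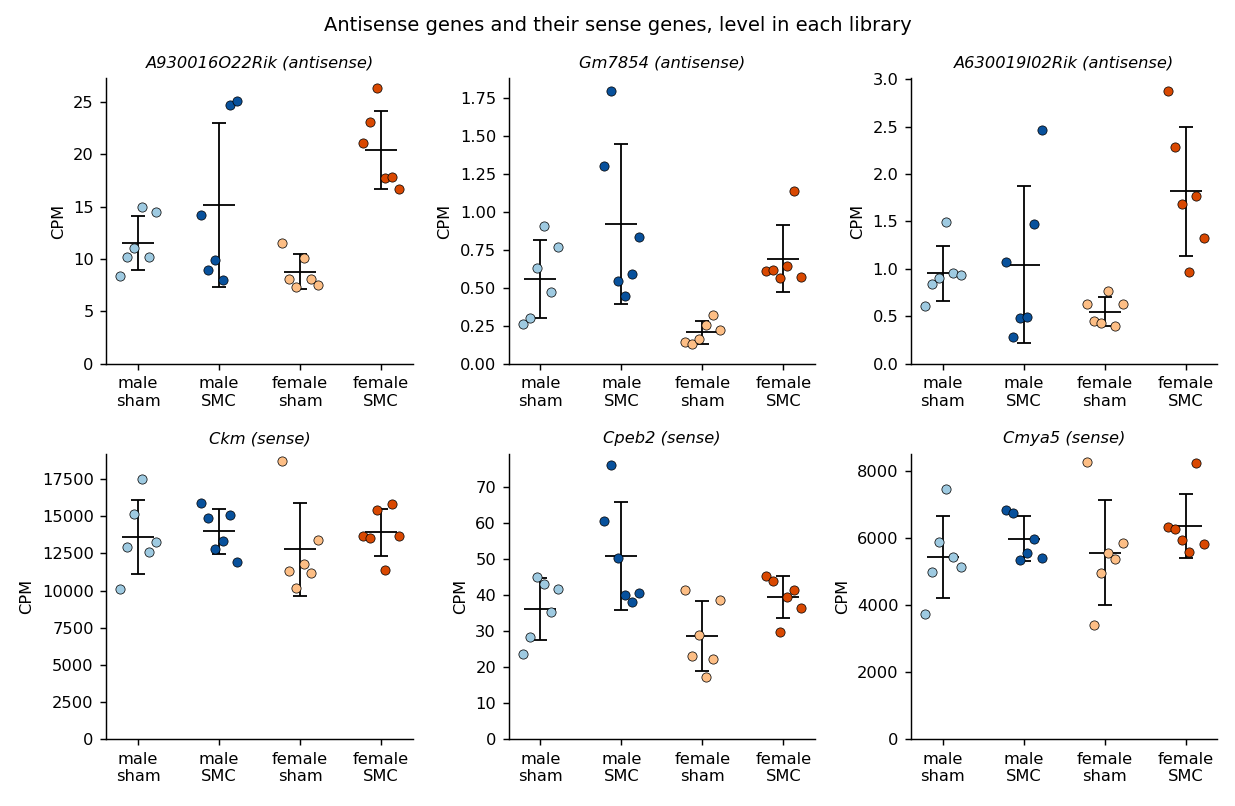
CPM of the 3 antisense genes (top) and their sense genes (bottom) in each library (points), with the mean and SD of each group of 6 (black). The 6 female SMC mice lie above all 6 female sham mice for A930016O22Rik, Gm7854 and A630019I02Rik, while the groups overlap for Ckm, Cpeb2 and Cmya5 in both sexes.

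The values that chose the antisense genes lay near the FDR threshold. By edgeR, A930016O22Rik had an FDR of 0.0270 (20 in the order of 56 genes), Gm7854 0.0496 (50) and A630019I02Rik 0.0498 (56, the last gene inside). The next gene outside was Tpst2, a protein tyrosine sulfotransferase gene, with an FDR of 0.0510. Among antisense genes, the nearest outside were Gm13938 on the opposite strand of Ttn, which encodes the giant sarcomere protein titin (log2 fold change 1.68, FDR 0.0511), and Gm26604 opposite Ryr1, the calcium release channel of muscle (1.61, FDR 0.0651). When single libraries were left out, A930016O22Rik stayed under the threshold in 16 of 24 fits, Gm7854 in 2 and A630019I02Rik in 3. With DESeq2 all 3 passed, and with limma and library weights none of them did. Their female log2 fold changes stayed between 1.14 and 1.32, between 1.52 and 1.90 and between 1.55 and 1.86, respectively, in those fits.

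The sense genes did not pass the threshold in either sex by edgeR, DESeq2 or limma. Ckm was among the most abundant transcripts, with means between 12768 and 13981 CPM in the 4 groups. Its log2 fold change with SMC was 0.12 in females (95% CI -0.18 to 0.43, edgeR FDR 0.799) and 0.04 in males (95% CI -0.26 to 0.35, edgeR FDR 0.955). Counts of Ckm were 309957 to 384116 (median 338073.5) in female sham and 280681 to 527745 (median 365816.5) in female SMC mice. In males they were 318043 to 433386 (median 391090) in sham and 284352 to 430965 (median 403503) in SMC mice, and the groups overlapped in both sexes.

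Cmya5 behaved much like Ckm in size of difference, at 0.19 in females (95% CI -0.15 to 0.54, edgeR FDR 0.699) and 0.14 in males (95% CI -0.21 to 0.48, edgeR FDR 0.828). Its counts were 105993 to 169171 (median 151621) in female sham and 126661 to 275053 (median 168491.5) in female SMC mice. Male sham mice held 136810 to 180095 reads (median 150992) and male SMC mice 129036 to 195001 (median 163520.5). All 6 SMC mice exceeded the sham median of CPM in each sex, yet the groups overlapped. Without male sham 4 and female sham 7, the 2 libraries of low slow-fibre level, the Cmya5 log2 fold change was 0.24 in males and 0.34 in females (edgeR FDR 0.501 and 0.221), and that of Ckm 0.11 and 0.27 (edgeR FDR 0.743 and 0.262).

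Cpeb2 had the largest estimates among the 3 sense genes and was of like size in both sexes. Sham and SMC females averaged 28.7 ± 9.63 and 39.5 ± 5.71 CPM, and sham and SMC males 36.2 ± 8.68 and 50.9 ± 15.01 CPM (SD, n = 6 each). The log2 fold change was 0.46 in females (SE 0.204) and 0.49 in males (SE 0.203). Its edgeR FDR was 0.338 in females and 0.355 in males, with unadjusted p of 0.0320 and 0.0228, so the difference did not pass over all genes in either sex. Raw counts were 475 to 1042 (median 785.5) in female sham and 635 to 1387 (median 1198.5) in female SMC mice, and 841 to 1288 (median 972.5) and 972 to 2203 (median 1296) in male sham and SMC mice. The 3 highest male SMC mice, replicates 13, 14 and 15 with 1579, 2203 and 1562 reads, lay above all male sham mice, while replicates 17 and 18 did not.

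A difference between the sexes in the SMC response of the sense genes was not detectable. Female minus male log2 fold changes were 0.08 for Ckm (95% CI -0.35 to 0.52), -0.03 for Cpeb2 (95% CI -0.62 to 0.56) and 0.06 for Cmya5 (95% CI -0.43 to 0.54), each with an edgeR FDR of 0.997. For this interaction, 0 of 16408 genes (0%) passed by edgeR, with 841 at an unadjusted p under 0.05, and 1 passed by DESeq2. The same differences for the antisense genes, which use the female values that chose them, were 0.83 for A930016O22Rik, 0.99 for Gm7854 and 1.598 for A630019I02Rik. Between sham males and sham females, where 1.97% of all genes differed, the log2 difference was 0.09 for Ckm, 0.34 for Cpeb2 and -0.03 for Cmya5 (edgeR FDR 0.810, 0.445 and 0.945).

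Per kilobase of exon the antisense genes lay far below their partners, with a wide range of gaps. In male sham mice A930016O22Rik was at 4.50 ± 1.02 RPKM and Ckm at 4667 ± 858 RPKM (SD, n = 6). A630019I02Rik was at 0.319 ± 0.0975 RPKM beside 458 ± 103 RPKM for Cmya5. Gm7854 was at 0.389 ± 0.180 RPKM beside 4.63 ± 1.11 RPKM for Cpeb2, by far the smallest gap of the 3 pairs. A930016O22Rik was at about the per-length level of Cpeb2, a coding gene, in the same mice.

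Expressed as antisense reads per 1000000 reads of the sense gene (ppm), the ratio separated the female groups for both intragenic pairs. For A930016O22Rik over Ckm it was 561 to 856 ppm (median 717) in female sham and 1127 to 1704 (median 1550) in female SMC mice, and for A630019I02Rik over Cmya5 73.7 to 138 ppm (median 97.2) and 174 to 456 (median 256). The mean log2 ratio was higher in SMC females by 1.07 and 1.42, beside edgeR log2 fold changes of 1.22 and 1.72 for the antisense genes themselves. Ckm and Cmya5 differed little. For Gm7854 over Cpeb2 the female groups overlapped, at 3529 to 14737 ppm (median 5723) in sham and 13525 to 27397 (median 15997) in SMC mice. Female sham replicates 10 and 11, at 14737 and 14423 ppm, reached into the range of SMC mice, and 4 of 6 SMC mice exceeded all sham mice. The mean log2 difference of the Gm7854 ratio was 1.157, beside an edgeR estimate of 1.73 for Gm7854 itself. Its mean log2 CPM was -1.89 in sham and -0.43 in SMC females. Differences of mean log2 ratios and edgeR estimates are unlike measures, above all at few reads. These female ratios contain the antisense values that chose the genes, so they are a description without a test. The share of all 565 opposite-strand pairs with a ratio that separates the female groups was not counted.

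In males, where the ratios took no direct part in the choice of genes, none of the 3 differed beyond the spread. The log2 ratio of A930016O22Rik to Ckm averaged -10.21 ± 0.199 with sham and -10.00 ± 0.762 with SMC housing (difference 0.21, two-sided exact permutation p = 0.506). That of Gm7854 to Cpeb2 differed by 0.18 (two-sided exact permutation p = 0.452), and that of A630019I02Rik to Cmya5 by -0.35 (two-sided exact permutation p = 0.506). Means hid a wider spread with SMC for both intragenic pairs, because replicates 17 and 18 were above all male sham mice and others fell below. For A630019I02Rik, SMC males ran from 41.0 to 457 ppm of Cmya5 reads (SD of the log2 ratio 1.20), compared with 155 to 200 in sham males (SD 0.127). For A930016O22Rik over Ckm, replicates 17 and 18 had 1640 and 2110 ppm, compared with 598 to 893 in the other 4 SMC males and 729 to 1093 in sham males. The difference in spread was not tested.

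**Figure D3:**
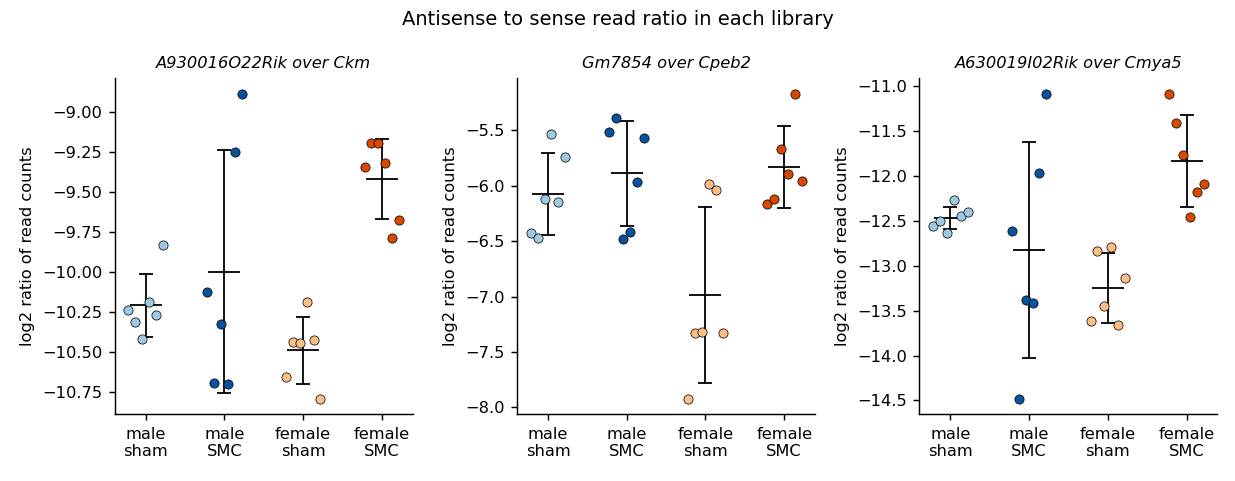
Log2 ratio of antisense to sense read counts (each count plus 0.5) in each library (points) with the mean and SD of each group of 6 (black), one panel per pair. Female SMC mice lie above all female sham mice for the Ckm and Cmya5 pairs, 4 of 6 do so for the Cpeb2 pair, and male SMC mice spread widely for the Ckm and Cmya5 pairs.

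Whether an antisense gene and its sense gene moved together between mice of the same group was asked with log2 CPM after subtracting each group's mean. The correlation over 24 libraries was 0.50 for Gm7854 and Cpeb2 (permutation p = 0.0210, Spearman rho 0.52 with permutation p = 0.0224), 0.32 for A930016O22Rik and Ckm (permutation p = 0.0796, rho 0.39 with permutation p = 0.0624) and 0.25 for A630019I02Rik and Cmya5 (permutation p = 0.123, rho 0.46 with permutation p = 0.0331). Benjamini-Hochberg values over all 565 opposite-strand pairs tested in the same way were 0.138, 0.310 and 0.402 for r and 0.163, 0.278 and 0.192 for rho, so none passed. Over those 565 pairs the median r was 0.145, and 37 (6.55%) had an adjusted value under 0.05. Leaving out the 2 libraries farthest from the median of the sense gene gave r = 0.51 for the Cpeb2 pair (permutation p = 0.0307), 0.13 for the Ckm pair (permutation p = 0.589) and 0.17 for the Cmya5 pair (permutation p = 0.410), and so the r of the Ckm pair rests largely on those libraries. The Cpeb2 pair fell to r = 0.39 without male SMC replicate 14 (permutation p = 0.0908) and to 0.43 without male sham replicate 1 (permutation p = 0.0637).

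Within single groups of 6 the relations were uneven. For Gm7854 and Cpeb2, sham and SMC males had r = 0.94 and 0.86, but SMC females had 0.32 and sham females -0.40, where Gm7854 had 3 to 9 reads. For A630019I02Rik and Cmya5, r was 0.97 in male sham mice and -0.24 in male SMC mice, with 0.52 and 0.36 in female sham and SMC mice. For A930016O22Rik and Ckm it was 0.79 and -0.08 in sham and SMC males and 0.74 and 0.36 in sham and SMC females. Male sham 4 was the highest of its group in Ckm, Cmya5 and both antisense genes, and female sham 7 in Ckm, Cmya5 and A930016O22Rik. Leaving out both libraries, a choice made after seeing the data, gave r = 0.15 over all groups for the Ckm pair (permutation p = 0.538). For the Cmya5 and Cpeb2 pairs it gave 0.15 (permutation p = 0.430) and 0.59 (permutation p = 0.0119). Single-group r without these libraries was not computed. Of the single groups, male SMC mice had the lowest r for both the Ckm and Cmya5 pairs. There, replicate 18 was high in both antisense genes, while its Ckm level of 11897 CPM was the lowest of the group and its Cmya5 level of 5399 CPM was below the group mean. Replicate 17, also high in both antisense genes, was at 15072 CPM for Ckm, the second highest of the group, and at 5957 CPM for Cmya5, near the group mean. Without group centring, the Cpeb2 pair reached r = 0.73, a value to which the differences between groups contribute.

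**Figure D4:**
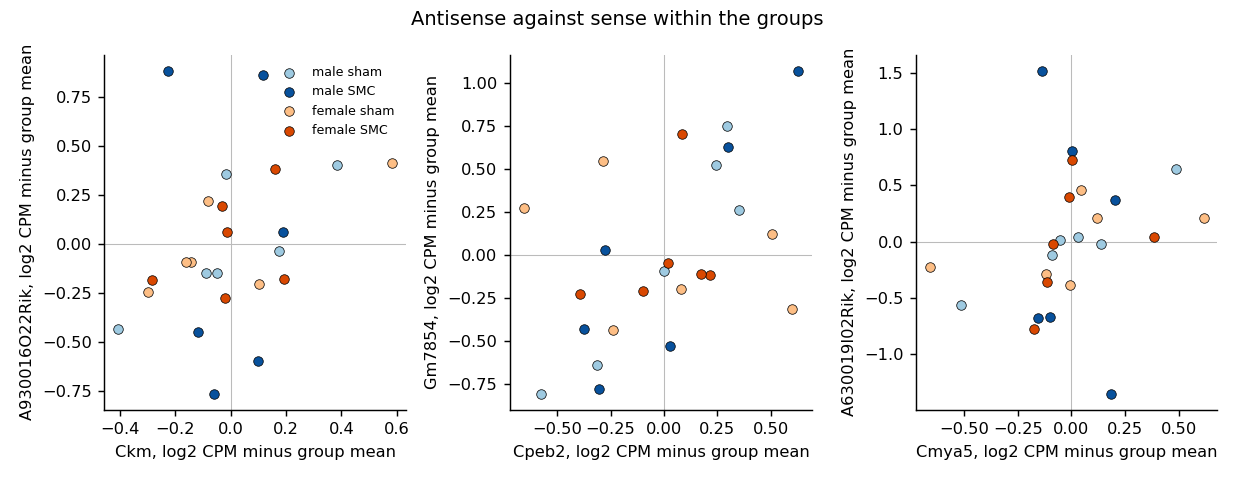
Log2 CPM of each antisense gene against its sense gene after subtracting the group mean, one point per library (24 in each panel, coloured by group). The Cpeb2 pair shows the closest relation (r = 0.50), whereas for the Ckm and Cmya5 pairs male SMC replicate 18 lies high on the antisense axis and below the group mean on the sense axis.

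Antisense genes of different chromosomes were closer to each other than to their own sense genes for the 2 intragenic pairs. A930016O22Rik and A630019I02Rik had r = 0.84 over the 24 group-centred libraries, and Ckm and Cmya5 had r = 0.83, whereas Gm7854 had r = 0.12 with A930016O22Rik and 0.06 with A630019I02Rik. These values are descriptions over libraries that share depth and scaling. A930016O22Rik and A630019I02Rik both spread most in male SMC mice, so that group weighs most in their r. The SD of log2 CPM there was 0.730 and 1.08, against at most 0.322 and 0.531 in the other groups. Their r without male SMC mice was not computed. Of all 16407 other tested genes, the one most like A930016O22Rik was Rabep2 (r = 0.87), followed by A630019I02Rik and by Gm26604, the antisense gene at Ryr1 (r = 0.77). A630019I02Rik in turn was closest to A930016O22Rik, Gm26604 (r = 0.72) and Hcfc1r1 (r = 0.70). Ckm took place 1414 in the order of likeness to A930016O22Rik, Cpeb2 place 692 for Gm7854 and Cmya5 place 1820 for A630019I02Rik.

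The sense genes and Gm7854 had other company. Ckm was most like genes of the contractile and glycogen machinery, Tpm1 (r = 0.97), which encodes a tropomyosin, Mybpc2 (r = 0.97), a fast myosin-binding protein, and Pygm (r = 0.96), muscle glycogen phosphorylase. Cmya5 was most like Kif1c (r = 0.96), a kinesin gene, Tor1aip1 (r = 0.95), a gene of the nuclear envelope, and Synm (r = 0.95), which encodes the intermediate filament protein synemin. Cpeb2 was closest to Tmem56 (r = 0.88), Wnt4 (r = 0.86) and Pole4 (r = 0.85), and Gm7854 to the growth factor gene Pdgfa (r = 0.83), Gm15879 (r = 0.80) and Gm10501 (r = 0.78). None of these genes passed the threshold with SMC by edgeR in either sex, except A930016O22Rik and A630019I02Rik in females.

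No gene next to the pairs on the chromosome passed the threshold in either sex. Ercc2 and Mark4 flank Ckm and had female log2 fold changes of -0.03 and -0.15 (edgeR FDR 0.941 and 0.533). Mtx3 and Tent2 flank Cmya5, at -0.08 and -0.17 (edgeR FDR 0.834 and 0.383), and Bod1l and Gm43699 are the nearest tested genes on either side of the Cpeb2 locus, at 0.07 and 0.62 (edgeR FDR 0.797 and 0.485). In males the same 6 genes ranged from -0.20 for Tent2 to 0.83 for Gm43699, with edgeR FDR no lower than 0.323.

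The 3 pairs were set among all annotated pairs of a gene not labelled protein-coding and an overlapping protein-coding gene on the other strand. Of 6701 such pairs, 565 had both genes tested. The antisense gene passed the threshold in females in 5 of these (0.885%, 3 of them higher) and in 0 (0%) in males by edgeR, and the 3 higher ones are the genes chosen here. In males 48 had an unadjusted p under 0.05, and DESeq2 and limma each called 3, none of them among the 3 pairs described. In females 67 had an unadjusted p under 0.05, and DESeq2 called 15 and limma 1. The other 2 were lower in SMC females, AC109619.1 opposite Macrod1 (log2 fold change -4.32) and Ndufb1-ps opposite Cpsf2 (-0.84). Over all 565 pairs the antisense gene had a higher estimate with SMC in 56.5% in females (median log2 fold change 0.05) and in 47.6% in males (median -0.02).

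Of the 3 pairs, 2 belonged to the extreme low end of antisense to sense ratio. Summed over the 24 libraries, the ratio was 186 ppm for A630019I02Rik to Cmya5 and 1019 ppm for A930016O22Rik to Ckm, and only 2 and 8 of the 565 pairs were lower. Gm7854, at 15379 ppm of Cpeb2 reads, had 156 pairs (27.6%) below it, and the median over pairs was 43354 ppm. The 9 pairs at or below the ratio of A930016O22Rik, a limit set after seeing the data, included sense genes that are abundant in muscle. Besides Ckm and Cmya5 these were Ttn (antisense Gm13938), Ryr1 (Gm26604), Casq1 (Gm17224), Myh2 (9430073C21Rik), Myh7 (Mhrt), Txnip (Gm15441) and Mb (Gm49540). A930016O22Rik and A630019I02Rik were chosen for their female increase, so the other 7 pairs are counted without them. Of the 7, 6 antisense genes had a higher estimate with SMC in females (median log2 fold change 0.65, range -0.56 to 2.11) and 5 in males (median 0.45, range -0.74 to 1.40), where Gm17224 opposite Casq1 was the lowest in both sexes.

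**Figure D5:**
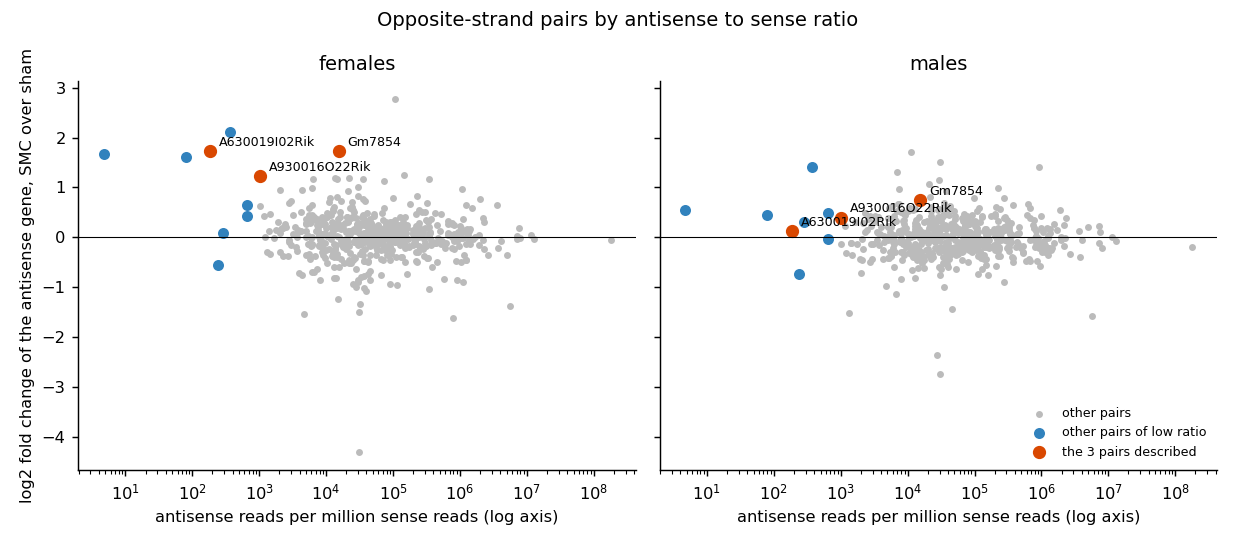
Log2 fold change of the antisense gene with SMC in females (left) and males (right) against antisense reads in ppm of sense reads over 24 libraries (log axis), one point per opposite-strand pair (565). A930016O22Rik and A630019I02Rik (orange) lie among the 9 pairs of lowest ratio, and of the other 7 (blue) 6 are above zero in females and 5 in males, while Gm7854 lies within the bulk of pairs on the ratio axis.

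The other 7 antisense genes of low ratio differed in how they followed A930016O22Rik and A630019I02Rik. Gm26604 and Gm13938 had r = 0.77 and 0.60 with A930016O22Rik and 0.72 and 0.69 with A630019I02Rik, whereas 9430073C21Rik had -0.03 and -0.18 and Gm49540 -0.07 and -0.03. The mean log2 ratio of these 7 pairs was -12.25 ± 0.378 in female SMC and -12.72 ± 0.708 in female sham mice, and -12.74 ± 0.587 and -12.55 ± 0.507 in male SMC and sham mice (SD, n = 6 each). Male SMC replicates 17 and 18 had the highest values of their group, -12.26 and -11.89. Without male sham 4 and female sham 7, a choice made after seeing the data, the SMC minus sham difference of this mean went from 0.47 to 0.74 in females and from -0.20 to 0.010 in males. The highest libraries of all 24 were male sham 4 (-11.52) and female sham 7 (-11.36), the 2 with low slow-fibre genes, and one of the 7 sense genes is Myh7, the slow myosin heavy chain. Its antisense gene Mhrt had 0 to 8 reads in sham males and 0 to 10 in sham females. The part of the Myh7 pair in the mean ratio and its differences was not tested.

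The strand setting used in counting was not given in the sources used here, and several measurements bear on whether sense reads could be counted for an antisense gene. The library kit marks strand. Tsix and Xist, an opposite-strand pair on the X chromosome in which Xist is abundant in females, gave 142775 Xist reads and 9 Tsix reads in the 12 female libraries, or 63.0 ppm, with 0 Tsix reads in 7 of 12. The Tsix reads fell as 8 in the 6 sham and 1 in the 6 SMC females, against 75204 and 67571 Xist reads. Relative to the sense reads that would fall on the exon bases the genes share, the antisense reads amounted to 571 ppm for Tsix in females, 897 for A630019I02Rik, 1220 for Gm13938, 2015 for Gm26604, 6585 for A930016O22Rik and 877402 for Gm7854. That is 1.57 times the Tsix value for A630019I02Rik, 11.5 times for A930016O22Rik and 1536 times for Gm7854. All reads of the antisense gene were counted here, also those on exon bases that the genes do not share. Shared bases were 2451 of 2990 for A630019I02Rik, 451 of 2560 for A930016O22Rik, 137 of 1433 for Gm7854 and 1980 of 6077 for Tsix. The values are therefore not like for like between genes. The part of reads from the sense strand in the A930016O22Rik and A630019I02Rik values was not tested.

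Genes that work with the sense genes were taken as 3 lists. By edgeR, 0 genes of any list passed in either sex. At an unadjusted p under 0.05 there were 0 genes in females and 2 in males for creatine, 4 and 5 for CPEB proteins, and 2 and 4 for myospryn partners, where 12.5% of all tested genes in females and 11% in males had such a p. DESeq2 called Trim63 in females and limma called Tob2 in males, and no other listed gene passed with either tool. For creatine and phosphocreatine metabolism (8 genes tested), the median log2 fold change was 0.09 in females and 0.10 in males, with the largest male estimate at Gatm, the first enzyme of creatine synthesis (0.42, edgeR FDR 0.414). For CPEB proteins and cytoplasmic poly(A) control (15 genes), the medians were 0.018 in females and 0.00078 in males. Cpeb2 had the highest estimate of its list in both sexes and Tob2, a gene that promotes deadenylation, the lowest, at -0.45 in females and -0.57 in males (edgeR FDR 0.247 and 0.201). For myospryn partners and the costamere (16 genes), the medians were 0.17 in females and -0.0029 in males. Trim63, which encodes the muscle ubiquitin ligase MuRF1, was the lowest there, at -1.72 in females and -1.25 in males (edgeR FDR 0.106 and 0.316), and Ryr2 was the highest in males (1.06, edgeR FDR 0.283). Among all tested genes the median was -0.011 in females and -0.0044 in males.

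Nuclear long RNAs were taken as a list of 8, of which Kcnq1ot1 and Snhg14 are themselves antisense genes of tested pairs. None passed the threshold in either sex by edgeR, DESeq2 or limma (1 in females and 4 in males at an unadjusted p under 0.05), and the median log2 fold change was 0.05 in females and 0.24 in males. Mirg had the highest estimate in both sexes, at 0.55 in females and 0.66 in males (edgeR FDR 0.327 and 0.307). The lowest estimates were those of Snhg14 in females (-0.46, edgeR FDR 0.451) and Kcnq1ot1 in males (-0.20, edgeR FDR 0.407).

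Markers of other cell types gave 0 called genes in either sex by edgeR, DESeq2 or limma in each of the lists for adipocytes, red blood cells, Schwann cells, macrophages, tendon cells, satellite cells and endothelial cells, and the most at an unadjusted p under 0.05 in edgeR were 3 of 4 tendon markers in females. The summed adipocyte markers spanned 10.98 to 39.4 CPM in sham females and 8.94 to 101 CPM in SMC females, with 4 of 4 genes at higher estimates. For tendon markers the ranges were 188 to 712 CPM in sham females and 123 to 369 CPM in SMC females, with 3 of 4 genes lower. All 10 slow-fibre genes had higher estimates in SMC females (median log2 fold change 0.61), as did 9 of 10 fast-fibre genes (median 0.10). In males 6 of 10 slow-fibre genes (median 0.51) and 5 of 10 fast-fibre genes (median -0.0047) had higher estimates. Adipocyte and tendon markers were lower in SMC males for 4 of 4 (median -0.47) and 3 of 4 genes (median -0.16). In females 0 genes of either list passed by edgeR, and 0 had an unadjusted p under 0.05. Mean log2 CPM of the slow-fibre genes was 1.67 in female sham 7 and 6.62 to 7.64 in the other sham females. In SMC females it was 6.47 to 8.08. Without female sham 7 and male sham 4 the female log2 fold changes of A930016O22Rik, Gm7854 and A630019I02Rik were 1.32, 1.67 and 1.77. No listed marker was at 0 in all libraries, and the part of cell composition in the antisense values was not tested beyond this.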

How the data were processed

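The authors isolated RNA (Direct-zol), depleted rRNA and made directional libraries (NEBNext Ultra II). The submitters' processing notes name cutadapt 1.16, STAR 2.7.9a, featureCounts 1.6, DESeq2 1.34.0 and the build GRCm39. The strand setting and annotation release of the counting were not given in the sources used here. The deposited values were raw read counts per gene for 24 libraries, and no column was left unused.

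Counts were fitted with edgeR 4.0.16 (filterByExpr, TMM, quasi-likelihood test, 1 mean per group, all 24 libraries) in R 4.3.3, and Benjamini-Hochberg FDR was taken over 16408 genes with a threshold of 0.05. The common biological coefficient of variation was 0.206. Log2 CPM used a prior count of 2. Ratios used counts plus 0.5 and an exact permutation test in males (smallest possible p 0.00216). Correlations were computed on group-centred log2 CPM with 100000 permutations. Alternatives were DESeq2 1.42.0, limma 3.58.1 voom with quality weights, other scaling and filters, and leaving out libraries. The edgeR step was tested on simulated counts for 16408 genes, where it recovered 71% of 100 genes changed by 1 and 37% of 100 changed by 0.5 on the log2 scale in females.

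Named genes were the members, the 3 genes most correlated with each, the nearest tested neighbours, other called antisense genes, and list genes that passed or were extreme in their list. Lists were scored with the counts of genes passing over all genes tested. Gene names and positions came from GENCODE M21 (GRCm38), and 52083 of 55416 IDs had a symbol. Sequences were read from the same build, and no positions were converted. The members and lists were chosen with earlier results of these data known. Nothing says which libraries shared a cage, so p-values measure the spread between these libraries.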

Additional observations from a re-analysis of the deposited data

Results flagged for a closer look

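In 36 groups of 6 values (log2 CPM of the 6 genes and the 3 log2 ratios, in 4 groups), 2 held a library far from the other 5 by Dixon's test at the 95% level, where chance gives about 1 in 20 groups. Both are female SMC replicate 23. Its log2 CPM was 0.27 for Gm7854, against -0.66 to -0.48 in the other 5 female SMC mice, and 13.01 for Cmya5, against 12.4 to 12.6. Without this library the female log2 fold change of Gm7854 was 1.52 and that of Cmya5 was 0.11. No sense gene had a detectable difference between the sexes in its SMC response.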

How the results depend on the processing

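The number of genes called over all 16408 depended on the method. In males DESeq2 called 128 and limma with quality weights 93, compared with 0 by edgeR. In females DESeq2 called 268, DESeq2 size factors in edgeR 37, limma 16, the 12 female libraries alone 14, and 155 were called without male sham 4 and female sham 7 (an alternative chosen after seeing the data), compared with 56. Leaving out single libraries gave 0 to 78 in males and 0 to 147 in females, with 0 when female SMC replicate 22 or 23 was left out. Leaving aside the female values of the antisense genes, 92 of 96 fold changes of members kept their direction and stayed short of the threshold, and 343 of 360 with single libraries left out. The female values of the antisense genes kept their direction in all 19 and 72 such fits, but were under the threshold in only 12 and 21 of them. The fold changes that changed sign had main estimates from -0.03 to 0.13. A630019I02Rik in males was at -0.10 with limma and -0.33 to 0.33 with single libraries left out. Ckm in males ran from -0.035 to 0.11. The sex difference of Cpeb2 was 0.14 with limma and 0.063 without male sham 4 and female sham 7, and -0.14 to 0.12 with single libraries left out. That of Cmya5 ran from -0.051 to 0.21. The sham sex difference of Cmya5 was 0.011 without the same 2 libraries and -0.14 to 0.12 with single ones left out. The male ratio of A930016O22Rik to Ckm ran from -0.010 (without male SMC replicate 18) to 0.35, that of Gm7854 to Cpeb2 from 0.085 to 0.30 and that of A630019I02Rik to Cmya5 from -0.70 to -0.022. Correlations ran from 0.24 to 0.52 for the Ckm pair, 0.39 to 0.62 for the Cpeb2 pair and 0.17 to 0.39 for the Cmya5 pair. By unadjusted permutation p, the Cpeb2 pair fell short without TMM factors (r = 0.43, p = 0.0601), and the Cmya5 pair passed by Spearman's rho (0.46, p = 0.0331). The Ckm and Cmya5 pairs also passed without male SMC replicate 14 or 18. A minimum of 10 counts in every library removed Gm7854 and A630019I02Rik. The cause of these changes was not tested. No paired analysis was possible because the labels record no pairing of mice between groups. Counts of 3 to 38 reads limit Gm7854 in females, where 1 read is a large part of a value.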
